A study of Mus musculus with 9 samples.

Results

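The miR-15, miR-16, miR-103 and miR-107 group was followed along the mouse epididymis through the small vesicles, called epididymosomes, that the epididymal epithelium sheds into the lumen. The members were all rows of the deposited miRNA table whose name begins with miR-15a, miR-15b, miR-16, miR-195a, miR-497, miR-322, miR-103 or miR-107 followed by a hyphen, whose mean across the 9 libraries was 10 CPM or more, where 1 CPM is 1 read in 1000000 reads of the library. 9 names matched and 8 reached the level, of 358 miRNAs in all: miR-15a-5p, miR-15b-5p, miR-16-5p, miR-195a-5p, miR-322-5p, miR-322-3p, miR-103-3p and miR-107-3p. The rule, drawn up with earlier results of these data known, takes members chosen by their name and this mean level. The lowest member was miR-322-3p, at a mean of 23.3 CPM, and the name just outside was miR-15b-3p, at 9.81 CPM. miR-497a-5p is written with an "a" in the table, so it did not match the rule and is described as a companion.

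The vesicles were taken from the caput (head), corpus (body) and cauda (tail) of the duct, which sperm traverse in that sequence, in male Swiss mice of 8 weeks without any treatment. There were 3 libraries of each segment, and each was made from RNA of several animals combined. Animals within a pool were not seen singly, and p-values measure only the spread between pools. In such bulk RNA, fewer vesicles carrying a miRNA and fewer copies per vesicle cannot be told apart.

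A mature miRNA guides the silencing complex to messenger RNAs mainly through its seed, the bases 2 to 8 at its 5′ end, and miRNAs with the same seed are grouped as a family because they can pair with the same sites. The miR-15/16 family is known for restraining the cell cycle and the anti-apoptotic protein Bcl2, and its miR-15a and miR-16 members for their loss in chronic lymphocytic leukaemia. miR-322 is the mouse counterpart of human miR-424. miR-103 and miR-107 are known for lowering Dicer, the enzyme that matures miRNAs, and for regulating insulin sensitivity, and all of their genes lie within pantothenate kinase genes, whose enzymes start the synthesis of coenzyme A.

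The mature sequences show why these names are read together. They are RefSeq sequences, matched by name, and were found for 299 of the 358 miRNAs of the table, all 8 members among them. They are written 5′ to 3′ with the seed in capitals, the first set sharing one seed.
miR-16-5p: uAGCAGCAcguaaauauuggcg
miR-195a-5p: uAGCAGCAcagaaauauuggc
miR-15a-5p: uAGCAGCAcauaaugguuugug
miR-15b-5p: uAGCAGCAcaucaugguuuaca
miR-322-5p: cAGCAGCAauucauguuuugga
miR-497a-5p: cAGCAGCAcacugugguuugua
The second set holds the pair with the other seed, and the passenger arm of miR-322, which is a member by name only.
miR-103-3p: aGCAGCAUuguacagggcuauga
miR-107-3p: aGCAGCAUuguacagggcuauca
miR-322-3p: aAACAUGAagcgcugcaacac
Both seeds hold the run GCAGCA, which begins at base 3 in the miR-15/16 family and at base 2 in miR-103-3p and miR-107-3p. The seeds thus share this run moved by 1 base, and their remaining letter differs. Read on the mature strand only, this run lay within bases 1 to 8 of 8 of the 299 miRNAs with a sequence (2.68%), namely 7 members and miR-497a-5p. With the shared run aligned and counted in, miR-16-5p had the same base as miR-195a-5p at 19 of 21 positions, as miR-15a-5p at 16 of 22, as miR-15b-5p at 14 of 22, as miR-322-5p at 12 of 22 and as miR-497a-5p at 11 of 22. With miR-103-3p it shared 8 of 21.

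miR-103-3p and miR-107-3p differ by a single base, G22C, counted from 1 at the 5′ end with the base of miR-103-3p first. The 21 bases before it are the same in both miRNAs, and 1 base follows it. Reads that end before base 22 could therefore come from either, and how the counting divided such reads was not tested.

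In the GRCm38 assembly of the mouse genome, the hairpin of miR-107-3p lies at chr19:34820687-34820773 on the minus strand, in an intron of Pank1 in the GENCODE annotation. miR-103-3p has 2 hairpins with the same mature sequence, at chr2:131288052-131288137 in an intron of Pank2 and at chr11:35782396-35782481 in an intron of Pank3, both on the plus strand. miR-16-5p also has 2. One lies at chr3:69009902-69009996 beside the hairpin of miR-15b-5p at chr3:69009772-69009835, both in an intron of Smc4, which encodes a condensin subunit. The other lies at chr14:61631880-61631972 in an intron of the non-coding gene Dleu2, where 117 bases separate the mature miR-16-5p from the mature miR-15a-5p. Counts of a mature miRNA do not tell its hairpins apart. The hairpin of miR-195a-5p at chr11:70235042-70235135 follows that of miR-497a-5p, with 310 bases between the mature sequences. The hairpin of miR-322 lies on the X chromosome at chrX:53054255-53054349, on the minus strand.

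The libraries held between 1548581 and 11306605 reads on miRNAs, as recovered from the steps between CPM values, with 8274421 or more in each caput library and 6190324 or fewer in the others. All 5 epithelial markers fixed for this work (miR-141-3p, miR-429-3p, miR-200a-3p, miR-200b-3p and miR-200c-3p) were above 0 CPM in all 9 libraries. One library stood apart. In caput replicate 2, miR-10a-5p and miR-10b-5p took 71.3% of the reads, against 33.2% to 63.2% in the other libraries, and all 8 members were lowest there among the caput libraries. For 6 of them it was the lowest of all 9 libraries. CPM ties each value to the most abundant miRNAs, so fold changes were computed both on this library size scale and after TMM normalisation, which scales libraries by the bulk of their miRNAs. Over all miRNAs tested, the median log2 fold change on the library size scale was 0.47 from caput to corpus, 0.18 from corpus to cauda and 0.81 from caput to cauda. After TMM normalisation it was -0.09, 0.08 and 0.13.

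Segments were compared with limma on log2(CPM + 1), a scale on which the change of low miRNAs is understated, using all 9 libraries. The p-values were adjusted by the Benjamini-Hochberg method over all miRNAs with a mean of 10 CPM in either segment. A miRNA passed when its adjusted p was under 0.05 and its fold change at least 2.

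miR-107-3p and miR-103-3p rose from caput to corpus, and miR-107-3p rose the more. miR-107-3p was at 213, 108 and 248 CPM in caput replicates 1 to 3, at 725, 824 and 697 CPM in the corpus, and at 624, 559 and 335 CPM in the cauda. Every corpus library lay above every other library, and every caput library lay below the rest. The segment means were 189.7 ± 73.0 CPM (SD, n = 3), 748 ± 66.7 CPM (SD, n = 3) and 506 ± 151 CPM (SD, n = 3). From caput to corpus the log2 fold change of miR-107-3p was 2.06 (standard error 0.41), a 4.16-fold rise, (limma, adjusted p = 0.0029). After TMM normalisation it was 1.48, a 2.79-fold rise, which also passed. Only 27 of the 321 miRNAs tested had a larger log2 fold change, on either scale. From caput to cauda miR-107-3p rose 2.73-fold on the library size scale, a log2 fold change of 1.45 (standard error 0.41) (limma, adjusted p = 0.0089). After TMM normalisation this change was 1.71-fold, under the fold required, and the caput and cauda libraries overlapped.

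miR-103-3p, which has the same seed, was at 831, 354 and 986 CPM in the caput, at 1728, 1585 and 1363 CPM in the corpus, and at 1425, 1521 and 950.4 CPM in the cauda. The corpus and caput libraries did not overlap, while cauda replicate 3 lay within the range of the caput. The segment means were 724 ± 329 CPM (SD, n = 3), 1558 ± 184 CPM (SD, n = 3) and 1299 ± 306 CPM (SD, n = 3). The rise from caput to corpus was 2.34-fold, a log2 fold change of 1.23 (standard error 0.40) (limma, adjusted p = 0.036). A larger log2 fold change was seen for 67 of the 321 miRNAs tested. The call of miR-103-3p was near the limit. After TMM normalisation the change was 1.57-fold and did not pass, and on the library size scale it was lost without caput replicate 2 (log2 fold change 0.78), without any one corpus library (1.15 to 1.32) and without cauda replicate 2 (1.23). From caput to cauda miR-103-3p did not pass, with a log2 fold change of 0.94 and a 95% confidence interval from 0.09 to 1.79 on the library size scale, and of 0.27, from -0.32 to 0.85, after TMM normalisation.

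The rank of a miRNA within its own library does not depend on scaling. miR-107-3p was the 93rd, 100th and 102nd most abundant miRNA of the caput libraries, the 59th, 59th and 60th of the corpus libraries and the 70th, 80th and 94th of the cauda libraries. miR-103-3p was the 40th in each corpus library, and ranked 48th to 58th in the caput and 43rd to 57th in the cauda. In the corpus both miRNAs thus stood higher in the order of miRNAs than in any library of the other segments.

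From corpus to cauda neither miRNA passed. The fold change of miR-107-3p was -0.61 on the log2 scale, with a 95% confidence interval from -1.48 to 0.26 and no overlap of the libraries, and that of miR-103-3p was -0.29, from -1.14 to 0.57. After TMM normalisation they were -0.71, from -1.35 to -0.07, and -0.39, from -0.97 to 0.20. The summed level of the 5 epithelial markers took a like course in these libraries. It was 20990 to 31796 CPM in the caput, 71973 to 84209 CPM in the corpus and 44552 to 61007 CPM in the cauda. miR-141-3p alone had segment means of 17882, 65694 and 40435 CPM, so the sum mostly shows the course of this miRNA. The part of the epithelial markers in the values of miR-103-3p and miR-107-3p was not tested.

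**Figure D1:**
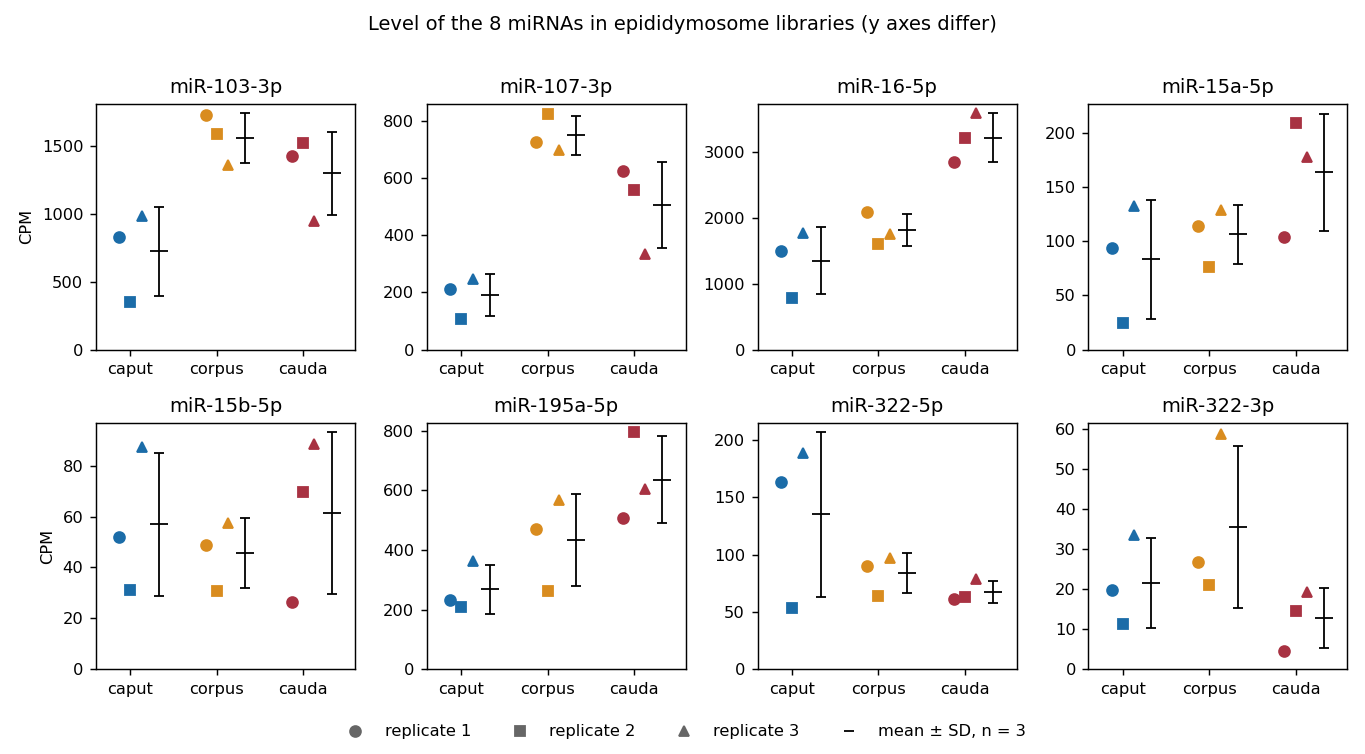
Level of the 8 miRNAs in CPM (y axis, starting at 0 and differing between panels) in each epididymosome library, by segment; symbols mark the replicate, and bars the mean ± SD of 3 libraries. miR-107-3p lies at 697 CPM or more in the corpus and at 248 CPM or less in the caput, miR-16-5p lies highest in the cauda, and caput replicate 2 is the lowest caput library in every panel.

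The pair did not move in step. The ratio of miR-103-3p to miR-107-3p within a library, which library scaling cannot change, was 3.91, 3.28 and 3.97 in the caput libraries, 2.38, 1.92 and 1.96 in those of the corpus and 2.29, 2.72 and 2.84 in those of the cauda. miR-103-3p was the more abundant in all 9 libraries, but every caput library held a higher ratio than every corpus or cauda library, while corpus and cauda overlapped. The mean ratio was 3.72 ± 0.38 (SD, n = 3) for caput, 2.09 ± 0.26 (SD, n = 3) for corpus and 2.61 ± 0.29 (SD, n = 3) for cauda. The segments differed in the log2 ratio by an exact permutation test over the 280 ways of dividing the 9 libraries among them (p = 0.00714, where the smallest possible is 0.00357). This test was chosen with earlier results of these data known. The standard error that read counting alone gives the log2 ratio was between 0.03 and 0.06 in each library. It leaves out how reads ending before base 22 were divided between the pair, which was not tested. Caput replicate 2, low in both miRNAs, had a ratio between those of the other caput libraries and of the corpus and cauda libraries.

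**Figure D2:**
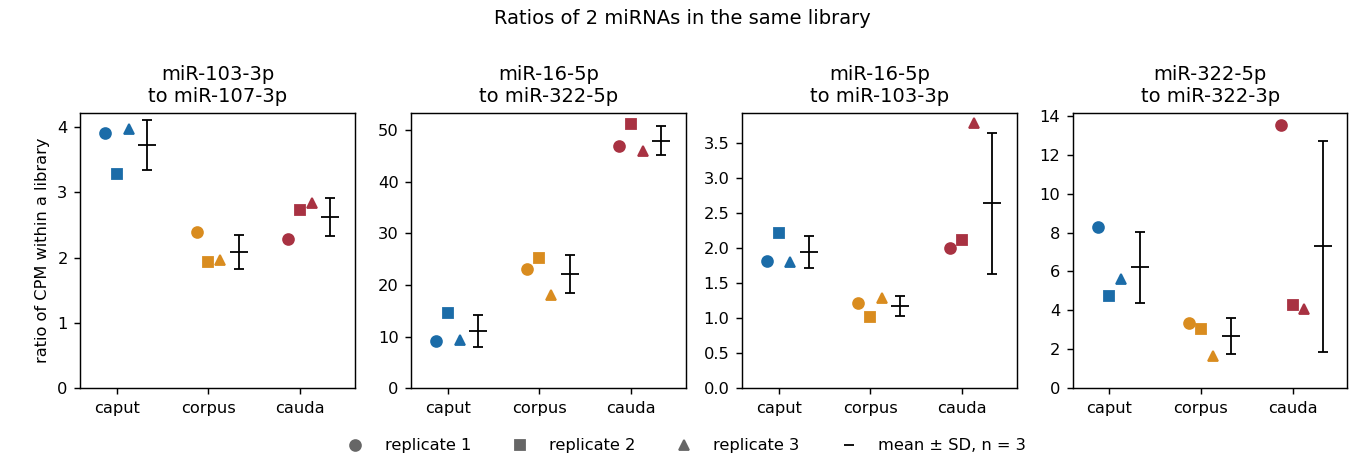
Ratio of the CPM of 2 miRNAs within each library (y axis, starting at 0) by segment, with symbols for the replicate and bars for the mean ± SD of 3 libraries. The ratio of miR-103-3p to miR-107-3p is at least 3.28 in the 3 caput libraries and at most 2.84 in the others, and that of miR-16-5p to miR-322-5p has no overlap between any 2 segments.

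miR-16-5p, the most abundant member, rose from caput to cauda. It was at 1507, 781 and 1770.2 CPM in the caput, at 2094, 1609.6 and 1757 CPM in the corpus, and at 2857, 3211 and 3597 CPM in the cauda. All cauda libraries lay above all others, and caput and corpus overlapped. The means were 1353 ± 512 CPM (SD, n = 3), 1820.2 ± 248 CPM (SD, n = 3) and 3222 ± 370.1 CPM (SD, n = 3). The rise from caput to cauda was 2.51-fold, a log2 fold change of 1.33 (standard error 0.35) (limma, adjusted p = 0.0056). It was 1.57-fold after TMM normalisation, with an adjusted p of 0.019 by the same limma test but under the fold required, and 0.97 on the log2 scale without caput replicate 2, also under it. In rank within the library miR-16-5p moved from 37th, 43rd and 41st in the caput to 29th, 28th and 28th in the cauda.

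miR-195a-5p, which shares its seed and most of its other bases with miR-16-5p, followed a like order of segments. It was at 233, 207 and 363 CPM in the caput, at 469.6, 263 and 566 CPM in the corpus, and at 508, 794 and 603 CPM in the cauda. Caput and cauda libraries did not overlap, and the corpus overlapped both. Its rise from caput to cauda was 2.40-fold, a log2 fold change of 1.26 (standard error 0.41) (limma, adjusted p = 0.017). The call was lost after TMM normalisation, at a log2 fold change of 0.59, and on the library size scale without caput replicate 1 (1.18) or cauda replicate 2 (1.09).

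The summed markers of red blood cells and of smooth muscle were also highest in the cauda. The summed leukocyte markers overlapped between all segments. These lists were read only as sums, so an abundant marker can set the course of its sum. Blood vessels were flushed before dissection, per the study's methods. The study reports that haemoglobin was not detected by immunoblot in its epididymosome preparations. Of 7 names listed for red blood cells, a cell type rich in miR-16-5p, 5 were in the table and none was at 0 in any library. Their summed level was 223 to 848 CPM in the caput, 389.6 to 1106 CPM in the corpus and 3030 to 4365 CPM in the cauda. The 4 smooth muscle markers, all above 0 throughout, summed to 50115 to 88995 CPM in the caput, 88423 to 121412 CPM in the corpus and 291676 to 354786 CPM in the cauda. The 5 leukocyte markers, none at 0, summed to 231 to 530.0 CPM in the caput, 515 to 1149 CPM in the corpus and 392 to 1601 CPM in the cauda. The part of these cells in the rise of miR-16-5p and miR-195a-5p was not tested.

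miR-15a-5p and miR-15b-5p, which are transcribed beside the miR-16 hairpins, did not pass in any comparison on either scale. miR-15a-5p was at 93.3, 24.2 and 132 CPM in the caput, at 114, 76.0 and 129 CPM in the corpus, and at 104, 209 and 177 CPM in the cauda, with overlap between all segments. Its log2 fold change from caput to cauda was 1.21, with a 95% confidence interval from 0.05 to 2.37 and a limma adjusted p of 0.073, and after TMM normalisation it was 0.55, from -0.29 to 1.39. miR-15b-5p was at 52.1, 31.3 and 87.2 CPM in the caput, at 48.9, 30.5 and 57.5 CPM in the corpus, and at 26.5, 69.6 and 88.5 CPM in the cauda, again with overlap between all segments. Its log2 fold change from caput to cauda was 0.07, with an interval from -1.03 to 1.16, and it turned to -0.60 after TMM normalisation.

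miR-16-5p outnumbered its neighbours in every library. Its ratio to miR-15a-5p lay between 13.4 and 32.3, with overlap between all segments. Its ratio to miR-15b-5p was 20.3 to 28.9 in the caput, 30.6 to 52.7 in the corpus and 40.6 to 108 in the cauda, so that the caput libraries lay under all the others. In cauda replicate 1, the highest of these, miR-15b-5p had 53 reads.

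miR-322-5p, the X-linked member of the same seed, went the other way. It was at 163, 53.7 and 189 CPM in the caput, at 90.3, 63.8 and 97.5 CPM in the corpus, and at 61.0, 62.7 and 78.3 CPM in the cauda. Caput replicates 1 and 3 lay above all other libraries, and caput replicate 2 below them. On the library size scale no comparison passed, and the log2 fold change from caput to cauda was -0.81, with a 95% confidence interval from -1.83 to 0.20. After TMM normalisation miR-322-5p fell from caput to corpus, by 1.09 on the log2 scale (adjusted p 0.02), and from caput to cauda, by 1.48 (adjusted p 0.0019), by limma with Benjamini-Hochberg adjustment. Without caput replicate 2 both also passed on the library size scale, at -1.08 and -1.38. In rank miR-322-5p went from 102nd to 125th in the caput to 142nd to 168th in the corpus and 165th to 183rd in the cauda, with no overlap between caput and the others.

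The contrast within the seed family was clearest in the ratio of miR-16-5p to miR-322-5p. It was 9.23, 14.6 and 9.37 in the caput libraries, 23.2, 25.2 and 18.0 in those of the corpus and 46.9, 51.2 and 45.9 in those of the cauda, with no overlap between any of the segments. The means were 11.1 ± 3.04 (SD, n = 3), 22.1 ± 3.71 (SD, n = 3) and 48.0 ± 2.81 (SD, n = 3). This ratio was chosen after its values had been seen and is given as a description.

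miR-322-3p, the passenger arm of the same hairpin, was at 19.7, 11.4 and 33.6 CPM in the caput, at 26.8, 21.1 and 58.8 CPM in the corpus, and at 4.50, 14.6 and 19.3 CPM in the cauda. The cauda libraries lay under the corpus libraries, and cauda replicate 1 held only 9 reads. Its log2 fold change from corpus to cauda was -1.47 on the library size scale, (limma, adjusted p = 0.084). After TMM normalisation it fell by 1.55 from corpus to cauda and by 1.41 from caput to cauda on the log2 scale, and both passed (adjusted p 0.028 and 0.027 by the same limma test). The ratio of miR-322-5p to miR-322-3p was 8.28, 4.72 and 5.62 in the caput libraries, 3.37, 3.02 and 1.66 in those of the corpus and 13.6, 4.28 and 4.05 in those of the cauda. The corpus libraries thus held the lowest ratio of guide to passenger arm, and the value of 13.6 rests on the 9 reads of cauda replicate 1.

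The other miRNAs of the miR-322 locus in the table were miR-351-5p, miR-450a-5p, miR-450b-5p and miR-542-3p, with at most 6240 bases between the mature sequence of each and that of miR-322-5p. With both arms of miR-322 they make 6, and each of the 6 had its lowest segment mean in the cauda. The share of all miRNAs with their lowest mean in the cauda was not counted, so this is a description and not a trait shown for the locus. The segment means from caput to cauda were 20.6, 29.5 and 18.7 CPM for miR-450a-5p. They were 10.7, 6.14 and 5.10 CPM for miR-450b-5p and 9.46, 11.4 and 6.57 CPM for miR-542-3p. For each of these the libraries of all segments overlapped. Of the companions at this locus, miR-351-5p fell from caput to cauda on the library size scale, by 1.53 on the log2 scale (standard error 0.44, limma adjusted p 0.0095). After TMM normalisation it fell by 2.20 from caput to cauda and by 1.28 from corpus to cauda, and miR-450b-5p fell from caput to cauda, by 1.35. miR-351-5p was at 203, 179 and 342 CPM in caput libraries, 155, 173 and 223 CPM in corpus libraries and 55.5, 66.4 and 137 CPM in cauda libraries, so that caput and cauda did not overlap. The companion miR-497a-5p, on the other hand, was at 224, 46.6 and 297 CPM in caput libraries, 203, 106.5 and 119 CPM in corpus libraries and 199, 253 and 162 CPM in cauda libraries, and did not pass in any comparison. Its ratio to its neighbour was unsteady: miR-195a-5p was 1.04 to 4.45 times as abundant in the caput, 2.31 to 4.76 times in the corpus and 2.55 to 3.71 times in the cauda. In all, 10 companion names were fixed, 4 of them were in the table, and miR-497a-5p was added by its sequence. None of the 5 tested passed from caput to corpus on either scale, and none of the 4 tested in each of the other comparisons passed as higher.

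**Figure D3:**
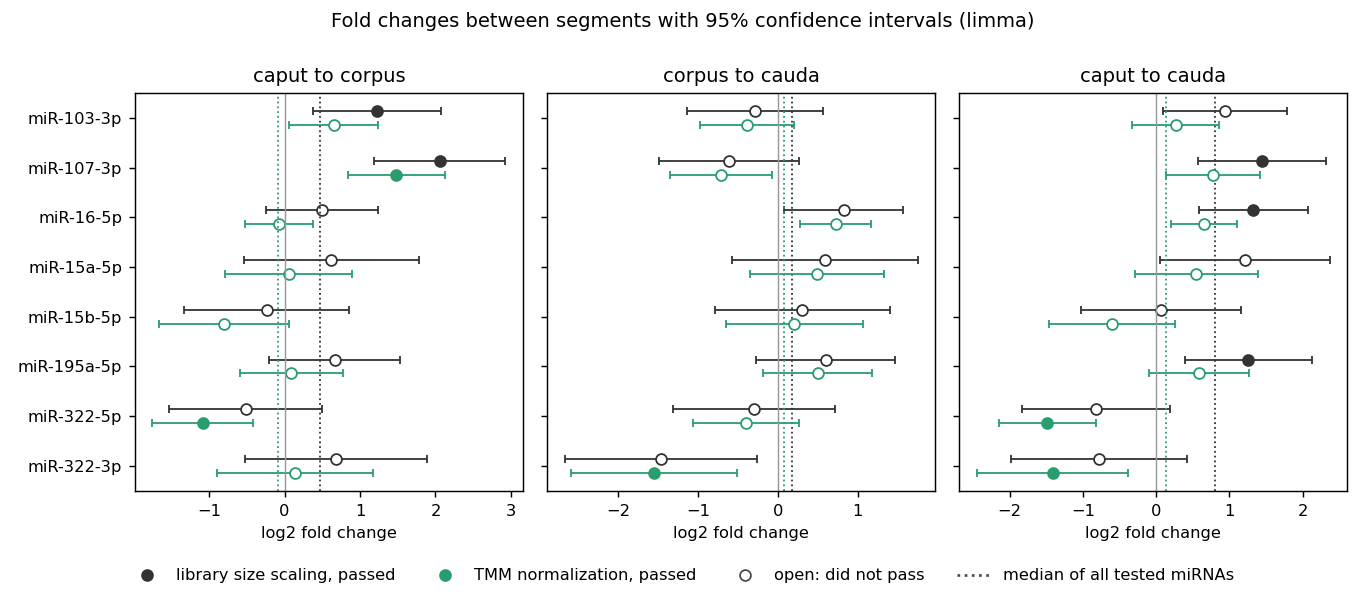
Log2 fold change of each miRNA between segments (x axis) with its 95% confidence interval from limma, on the library size scale (dark) and after TMM normalisation (green); filled points passed the test and dotted lines mark the median of all miRNAs tested. miR-107-3p lies right of both medians from caput to corpus, and miR-322-5p lies left of them in every comparison.

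The count of members that passed was set beside the share of all miRNAs tested, with no test of the difference. From caput to corpus 2 of 8 members passed on the library size scale, both higher, against 22.4% of the 321 miRNAs tested (19.0% higher and 3.43% lower). After TMM normalisation 2 of 8 passed, miR-107-3p higher and miR-322-5p lower, against 28.3% of all (13.1% higher and 15.3% lower). From corpus to cauda none of the 8 passed on the library size scale, against 19.0% of 342 (14.0% higher and 4.97% lower), with 0 also by limma-voom and 2 (miR-16-5p and miR-322-3p) at an unadjusted p under 0.05. After TMM normalisation 1 member passed, miR-322-3p, against 26.3% (16.4% higher and 9.94% lower). From caput to cauda 3 of 8 passed, all higher, against 49.0% of 349 (38.7% higher and 10.3% lower), and after TMM normalisation 2 of 8, both lower, against 45.3% (24.9% higher and 20.3% lower). The libraries of the caput and corpus did not overlap for 2 members, against 34.9% of all tested, and those of the caput and cauda for 3 members, against 54.2%. Those of the corpus and cauda did not overlap for 3 members, against 46.2%. After TMM normalisation, overlap was not counted over all miRNAs.

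The median log2 fold change of the 8 members was 0.64 from caput to corpus, 0.01 from corpus to cauda and 1.08 from caput to cauda on the library size scale, beside 0.47, 0.18 and 0.81 over all miRNAs tested. After TMM normalisation the medians of the members were 0.07, -0.09 and 0.41, beside -0.09, 0.08 and 0.13. The segment mean was highest in the cauda for 4 members (miR-15a-5p, miR-15b-5p, miR-16-5p and miR-195a-5p), in the corpus for 3 (miR-103-3p, miR-107-3p and miR-322-3p) and in the caput for miR-322-5p. Over all 309 miRNAs with a mean of 10 CPM it was highest in the cauda for 166, in the corpus for 84 and in the caput for 59.

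Summed by seed, the order of the segment means differed between the groups, which was not tested. The 5 members of the miR-15/16 seed together reached a mean of 1896 ± 734 CPM (SD, n = 3) over the caput libraries, 2489 ± 399.9 CPM (SD, n = 3) over the corpus libraries and 4149 ± 523 CPM (SD, n = 3) over the cauda libraries. miR-16-5p made up 67.4% to 80.3% of this sum in each library. miR-103-3p and miR-107-3p together reached 913 ± 402 CPM (SD, n = 3), 2307 ± 215 CPM (SD, n = 3) and 1805 ± 450.03 CPM (SD, n = 3). Corpus and cauda libraries overlapped in this second sum, at 2059 to 2452 CPM and 1285 to 2080 CPM. The ratio of miR-16-5p to miR-103-3p was accordingly lowest in the corpus, at 1.21, 1.02 and 1.29, against 1.796 to 2.21 in the caput and 2.00 to 3.79 in the cauda. All 8 members took 0.157% to 0.381% of the reads of a caput library, 0.447% to 0.530% in the corpus and 0.561% to 0.644% in the cauda. These shares and sums are on the library size scale. On it, the median log2 fold change of all miRNAs tested from caput to cauda was 0.81.

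**Figure D4:**
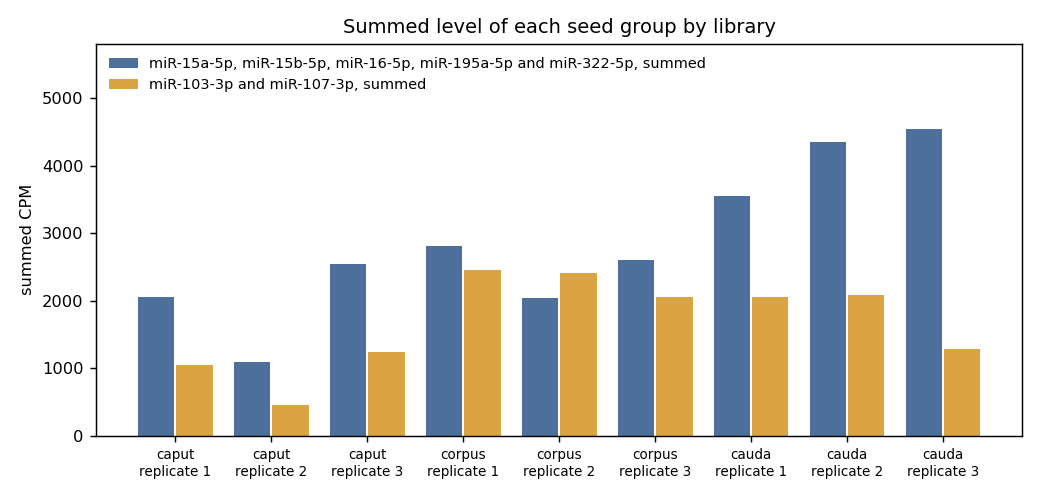
Summed CPM (y axis) of the 5 members with the miR-15/16 seed and of miR-103-3p with miR-107-3p in each of the 9 libraries. The first sum is at least 3557 CPM in the cauda libraries and at most 2816 CPM in the others, and the second is at least 2059 CPM in the corpus libraries and at most 1234 CPM in the caput libraries.

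The miRNAs whose course over the 9 libraries was most like that of miR-103-3p were found by the root mean square difference of the centred log2(CPM + 1) values, among the 301 other miRNAs with a mean of 10 CPM. They were miR-1839-5p (0.22), miR-574-5p (0.26), miR-200a-3p (0.30), miR-26b-5p (0.30) and miR-218-5p (0.30), where the median of all 301 was 0.76. miR-107-3p itself was at 0.37, and 23 of the 301 lay nearer. The nearest to miR-107-3p were miR-218-5p (0.38), miR-3473a (0.42), let-7i-5p (0.46), miR-141-3p (0.46) and let-7i-3p (0.47), where the median was 0.93, and none of the 301 lay nearer to it than miR-103-3p.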

How the data were processed

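Small RNA of epididymosomes was sequenced in 9 libraries, 3 per segment. The authors screened reads for contaminants with cutadapt and bowtie, quantified known miRNAs with miRDeep2 and divided by library size, so that the deposited unit is CPM. The submitters' processing notes name CASAVA 1.8.2, Bowtie 1.1.1 and limma. The genome build and miRBase release are not given in the sources used here. In every library 100% of values were whole multiples of 1 read (within 0.01 reads), which gave the depth, 1548581 to 11306605 reads. At 10 CPM a miRNA had 15.5 to 113 reads, and precision here covers counting error only.

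Tests used limma 3.58 in R 4.3 (lmFit, eBayes with trend) on log2(CPM + 1), with segment as the only factor and all 9 libraries. TMM factors were computed from the recovered reads. Alternatives were median-of-ratios scaling, scaling without miR-10a-5p, miR-10b-5p and miR-143-3p, pseudocounts of 0.1 and 10 CPM, no filter, a filter of 50 CPM, a block for the replicate number, only the 6 libraries compared, limma-voom, and each library left out. The code was tested on simulated data. Python 3.11, pandas 2.3 and matplotlib 3.10 served for tables and plots. Sequences and positions are those of RefSeq for GRCm38.p6, with genes from GENCODE M21.

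Members, lists and tests were chosen with earlier results of these data known. Named are the members, the names just below 10 CPM, companions of the miR-322 locus or with GCAGCA within bases 1 to 8, and the 5 nearest profiles of miR-103-3p and miR-107-3p. Ratios other than that of miR-103-3p to miR-107-3p were chosen after their values had been seen.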

Additional observations from a re-analysis of the deposited data

How the results depend on the processing

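The rise of miR-107-3p from caput to corpus passed under all alternatives run. With TMM normalisation calls were lost for miR-103-3p from caput to corpus (0.65 on the log2 scale) and, from caput to cauda, for miR-16-5p (0.65), miR-107-3p (0.77) and miR-195a-5p (0.59). Calls were gained for miR-322-5p (-1.09 from caput to corpus, -1.48 from caput to cauda) and miR-322-3p (-1.55 from corpus to cauda, -1.41 from caput to cauda). The uncalled values of miR-16-5p from caput to corpus (-0.075) and miR-15b-5p from caput to cauda (-0.60) changed sign. Median-of-ratios scaling gave, in the same order, 0.71, 0.605, 0.73, 0.54, -1.03, -1.53, -1.64, -1.45, -0.0197 and -0.64. Without the top 3 miRNAs in the total, miR-103-3p from caput to corpus was at 0.93, under the fold required, and miR-15b-5p from caput to cauda at -0.0800. The cause of these moves was not tested beyond the scaling itself.

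With only the caput and corpus libraries in the fit, miR-103-3p lost its call at 1.23. The stricter filter, which tests fewer miRNAs, left 95 calls from caput to cauda in place of 171. With 1 library left out, calls over all miRNAs ranged from 46 to 102 from caput to corpus, lowest without corpus replicate 1. From corpus to cauda they ranged from 32 to 83, with 41 without corpus replicate 1, 32 without corpus replicate 2, 38 without cauda replicate 1 and 39 without cauda replicate 2. From caput to cauda they ranged from 132 to 202.

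With 1 library left out, log2 fold changes from caput to corpus ranged from 0.78 to 1.51 for miR-103-3p, from -0.10 to 1.104 for miR-15a-5p, from -0.60 to 0.13 for miR-15b-5p and from -1.08 to -0.18 for miR-322-5p. From corpus to cauda they ranged from -0.036 to 0.82 for miR-15b-5p and from -1.84 to -0.90 for miR-322-3p, which passed without cauda replicate 3. From caput to cauda they ranged from 0.49 to 1.23 for miR-103-3p, which passed without caput or cauda replicate 3, from 0.49 to 1.69 for miR-15a-5p, which passed without caput replicate 3, from -0.29 to 0.58 for miR-15b-5p, from 0.97 to 1.56 for miR-16-5p, from 1.09 to 1.501 for miR-195a-5p and from -1.38 to -0.48 for miR-322-5p. The ratio of miR-103-3p to miR-107-3p stayed past the threshold, with exact permutation p-values from 0.00714 to 0.0143.

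Taking the replicate numbers as pairing required a correlation of deviations over 0.1 across 309 miRNAs in all 9 same-number pairs. Of these, 6 were over it, at 0.102 to 0.44, and 3 pairs were at -0.022, -0.21 and -0.17. In 5 of 9 pairs the best match was the same number. The numbers were therefore not taken to pair the pools, though this rule cannot show that the pools were unpaired. With the number as a block, 2 more member calls were made, miR-322-3p from corpus to cauda (-1.47) and miR-15a-5p from caput to cauda (1.21). Count models other than limma-voom were not run. miR-322-3p had 9 to 114 reads in the cauda libraries, and its corpus to cauda value was -0.90 without cauda replicate 1.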
